A study of Mus musculus with 2 samples.

Results

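The regions described here are the ATAC-seq peaks of the mouse heart that lie in the first intron of an annotated transcript. They were chosen by their annotation alone: every peak annotated to an intron, and to intron 1 of its transcript, was kept. This gave 8826 of 83549 peaks (10.6%), in 3560 transcripts of 3427 host genes. Chromatin was taken from hearts of mice aged 4 days, 7 pooled mice of the genotype Wtapflox/flox and 6 pooled mice of the genotype Wtap-CKO. Wtap-CKO mice carry a cardiomyocyte-specific knockout of Wtap, a subunit of the nuclear complex that methylates adenosine in RNA. Wtapflox/flox mice carry the floxed gene and are called the control below, and Wtap-CKO the knockout. Each pool gave 1 library, so no difference has a replicate check, no p-value is given, and every statement compares these 2 libraries. The sources used here name neither the Cre line nor the deleted exons, and cells other than cardiomyocytes were not targeted. In whole-heart pools, a change in the share of a cell type and a change of chromatin within its cells cannot be told apart.

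In ATAC-seq the transposase Tn5 inserts adapters into accessible DNA, so that reads pile up where nucleosomes are displaced. The first intron is usually the longest intron of a gene and often holds enhancers and alternative starts. Such elements are bound by transcription factors and tend to differ between cell types more than promoters do. The peaks have coordinates and no names, and the gene IDs are not paired with symbols in the files. Genes are therefore described by position (GRCm39, counted from 1) and by the Gene Ontology (GO) terms deposited with the gene of the nearest start. For the same reason the tissue label was not checked against marker genes.

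First-intron peaks were narrow and of moderate strength. Their median width was 317 bp and their median mean signal 6.003 CPM (counts scaled to the reads of a library in all peaks), against 504 bp and 14.2 CPM for the 22815 peaks within 1000 bp of a start. The control library had 9835753 reads in all peaks and the knockout library 9816384. First-intron peaks took 739560 reads (7.52%) in the control and 746571 (7.61%) in the knockout. A single peak held a median of 57 reads in the control, with a range from 4 to 1665, and a median of 61 in the knockout, with a range from 4 to 3086. Ratios of single peaks therefore have wide counting intervals. Intervals below are exact conditional binomial 95% intervals and cover counting error only, not the difference between pools or preparations.

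First-intron peaks lay at a distance from annotated starts. The annotation assigns peaks within 3000 bp of a start to promoters, so the nearest member lay 3003 bp away. The median distance to the nearest start was 11483 bp, the interquartile range ran from 6475 to 21763 bp, and the farthest was at 259679 bp. For 2862 peaks (32.4%) the nearest start belonged to a gene other than the one whose intron held the peak, and the deposited GO terms then describe that neighbour. A further 1581 peaks lay upstream of the nearest start although that start belonged to the host gene, which places them before an alternative start. For the 7250 peaks whose host transcript could be placed, the median distance from the host start was 21649 bp.

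The intron that held the most peaks was an outlier of annotation. Intron 1 of a transcript with 15 introns on chromosome 8 held 251 of the 8826 peaks (2.84%), between positions 120687262 and 125018379, a span of 4.33 Mb. The next transcript held 32. The peaks of this long intron were nearest to starts of 69 other genes and in 0 cases to a start of the host. Together they held 27646 reads in the knockout and 26882 in the control. Their median log2 ratio was 0.090, and without them the median of first-intron peaks changed from 0.015 to 0.0028. Results that rest on peaks in its span are marked below.

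Accessibility of first-intron peaks was close to equal in the libraries. The median log2 ratio of knockout over control, after scaling to reads in peaks, was 0.015, and the interquartile range was -0.34 to 0.44. Of the 8826 peaks, 6457 passed the signal floor of 3.92 mean CPM, about 38.6 reads. Among these, 265 (4.10%) were at least 2-fold higher in the knockout, against 3.50% of all peaks over the floor, and 124 (1.92%) at least 2-fold lower, against 1.45%. Higher peaks made up 68.1% of the calls. With the RPM values deposited by the authors, which shift the median of all peaks by -0.22, 166 were higher and 369 lower (31.0% higher). With the library totals behind that RPM, and the value added before the log kept in proportion, 141 were higher and 301 lower (31.9%). Which direction was more frequent therefore depended on the scaling.

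The counting interval lay above 0 for 1355 first-intron peaks (21.0%) over the floor, against 19.5% of all peaks, and below 0 for 1166 (18.1%), against 18.3%. Many differences at 2-fold were those of peaks called in 1 library. Higher peaks had a median mean signal of 5.50 CPM and lower peaks 6.26 CPM, against 7.74 CPM for all first-intron peaks over the floor. The authors' peak caller marked 55.6% of first-intron peaks in both libraries, against 61.2% of all peaks, 20.01% only in the knockout, against 17.6%, and 24.4% only in the control, against 21.2%. The 265 higher peaks split into 202 with a call in the knockout alone and 63 with a call in both. Of the 124 lower peaks, 87 were called only in the control and 37 in both. Peaks called only in the knockout still held a median of 26 reads in the control, beside 46 in the knockout.

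**Figure D1:**
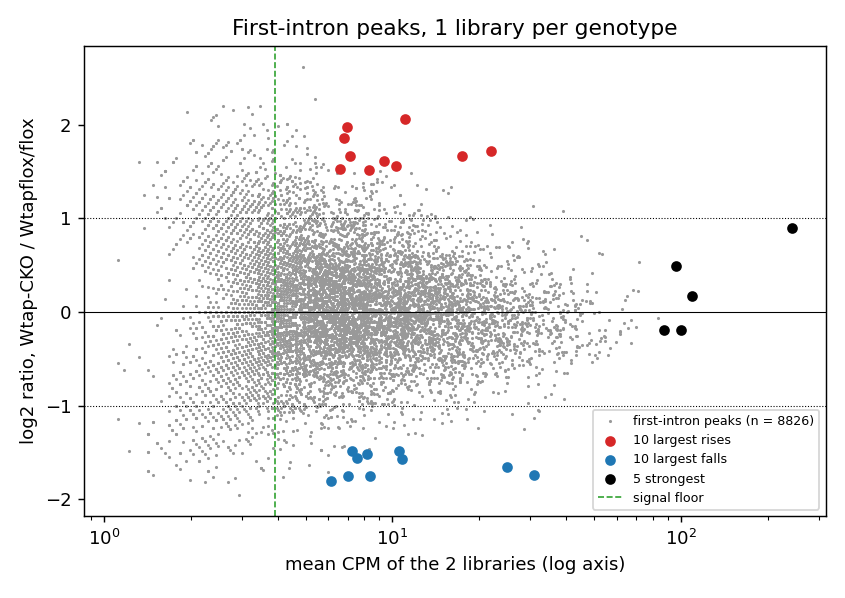
Each grey point is 1 of the 8826 first-intron peaks, with the mean CPM of the 2 libraries on a log axis and the log2 ratio of knockout over control. Red, blue and black points are the named rises, falls and strongest peaks; dotted lines mark 2-fold and the dashed line the floor of 3.92 CPM. The cloud is centred near 0 and narrows with signal.

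First-intron peaks had lower ratios than later-intron peaks and higher ratios than promoters. The 18320 peaks of later introns had a median log2 ratio of 0.053, so that first introns lay 0.039 below them, while promoter peaks, at most 1000 bp from a start, had -0.060. This order was kept at every signal level. All peaks were put in 4 signal classes at their quartiles of mean CPM, 3.92, 6.66 and 13.3. In the weakest class the medians were 0.040 for first and 0.071 for later introns. In the second they were 0.054 and 0.090, in the third 0.017 and 0.059, and in the strongest class -0.042 and -0.017. Promoter peaks had -0.100, 0.0026, -0.028 and -0.074 in the same classes. A difference of this size is far below the spread of single peaks, and with 1 library per genotype it cannot be set against replicates.

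The median of first-intron peaks was below 0 in the strongest signal class alone, which holds for scaling by reads in peaks. By the authors' RPM the medians were below 0 in all 4 classes, at -0.17, -0.16, -0.20 and -0.26, and lowest in the strongest. In the strongest signal class, 406 of 1428 peaks (28.4%) had a counting interval below 0 and 286 (20.03%) one above 0. In later introns of that class the shares were 25.3% and 22.7%. At 2-fold, 12 of the 1428 strong first-intron peaks (0.840%) were higher and 18 (1.26%) lower, and of the 2459 strong later-intron peaks 37 (1.505%) were higher and 21 (0.854%) lower. In the weakest class that passed the floor, 169 of 2535 first-intron peaks (6.67%) were higher and 69 (2.72%) lower. Later introns of that class had similar shares, with 379 of 5518 peaks (6.87%) higher and 143 (2.59%) lower.

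**Figure D2:**
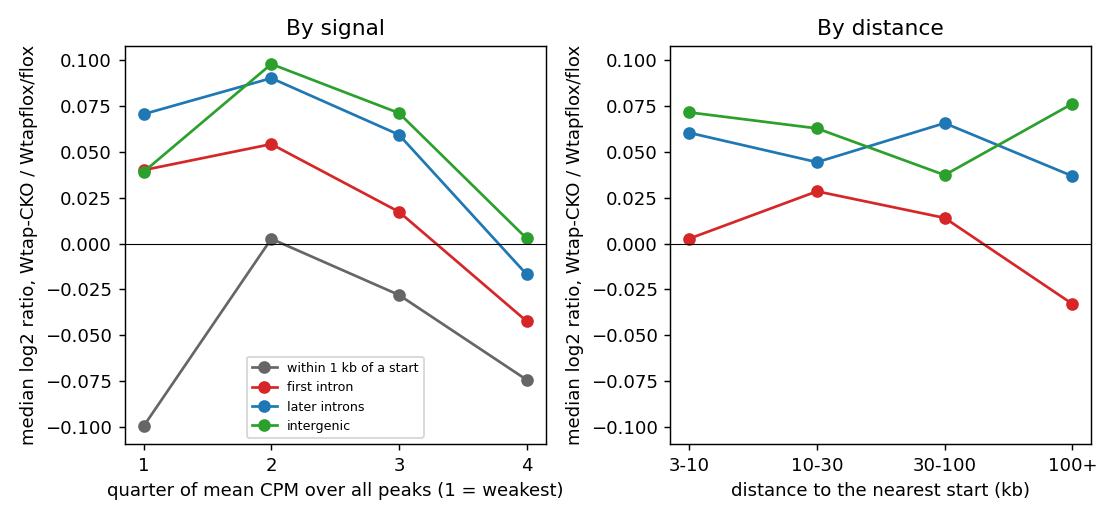
Median log2 ratio of knockout over control by signal class, cut at the quartiles of mean CPM (left) and by distance to the nearest start in kb (right), for peaks in first introns, later introns and intergenic DNA and, on the left, within 1000 bp of a start. First introns (red) lie below later introns (blue) in all 4 signal classes and all 4 distance bins.

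Distance to the nearest start had little relation to the ratio. The median log2 ratio was 0.0027 for the 3860 first-intron peaks at 3 to 10 kb, 0.028 for the 3528 at 10 to 30 kb, 0.014 for the 1292 at 30 to 100 kb and -0.033 for the 146 at 100 kb or farther. Values in later introns were 0.060, 0.044, 0.066 and 0.037, above first introns in each bin. With both signal and distance split, 15 of 16 combinations held at least 20 peaks of both classes, and first introns had the lower median in 13 of them, with differences from -0.31 to 0.038. Signal, in contrast, declined with distance, from a median of 6.44 CPM at 3 to 10 kb to 5.85, 5.42 and 4.38 CPM in the farther bins.

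At 2-fold, 109 of 2953 peaks (3.69%) were higher within 10 kb, 112 of 2554 (4.39%) at 10 to 30 kb, 38 of 870 (4.37%) at 30 to 100 kb and 6 of 80 (7.50%) beyond. Lower peaks made up 1.90%, 2.19%, 1.26% and 1.25% in the same order. The shares over all peaks were 3.50% and 1.45%. Higher peaks had a median distance of 13233 bp and lower peaks one of 11327 bp, against 10982 bp for all first-intron peaks over the floor. Peaks lying upstream of a start of their own host gene had 66 higher and 17 lower calls among 1192 over the floor, 5.54% and 1.43%, of which the latter is close to the 1.45% of all peaks. Peaks in transcripts with a single intron, of which there were 852, were the group by intron number with a negative median (-0.027) and held 16 higher (2.72%) and 17 lower peaks (2.89%) among 588 over the floor.

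Chromosomes had similar values. Medians of first-intron peaks ran from -0.031 on chromosome 11 to 0.083 on chromosome 7 among the autosomes, and the X chromosome had -0.086. The labels do not state the sex of the mice.

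The 10 largest differences towards the knockout, taken from peaks whose signal reached the median, had 98 to 333 reads there and 25 to 98 in the control. The authors' caller marked 8 of these 10 in the knockout alone. Where reads are given as 1 number against another, the knockout comes first. The largest lay on chromosome 12 (69944914 to 69945388), with 178 reads in the knockout and 39 in the control, a log2 ratio of 2.06 (interval 1.69 to 2.73). It sits in intron 1 of 13 of ENSMUSG00000021066, a GTPase gene of the Golgi and endoplasmic reticulum, and 4940 bp upstream of the start of a MAP kinase cascade gene. The promoter of the host held 439 reads against 461 (log2 ratio -0.07), so the peak and the promoter of its host differed.

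A peak on chromosome 2 (91802614 to 91802908) had 112 reads in the knockout against 25, a log2 ratio of 1.97 (interval 1.53 to 2.85). It lies in intron 1 of 30 of ENSMUSG00000040479, annotated to diacylglycerol kinase activity, an enzyme activity that turns the second messenger diacylglycerol into phosphatidic acid. The promoter of that gene was lower in the knockout, with 839 reads against 1069 (-0.34, interval -0.48 to -0.21). The other first-intron peak of the transcript held 259 against 242 (0.10).

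Another peak on chromosome 2 (121445379 to 121445763), in a gene of adherens junctions and integrin binding, had 107 reads against 26 (1.86). Here the other 6 peaks of the intron were also higher on balance, with 594 reads against 341 (0.80, interval 0.61 to 0.9999), whereas the promoter had 527 against 738 (-0.48). On chromosome 10 (60641225 to 60641907) an intron of a netrin receptor gene with angiogenesis terms held 333 reads against 98 (1.72, interval 1.44 to 2.11). The nearest start, 8195 bp away, belongs to another gene, with no GO terms used here, whose promoter had 449 reads against 199 (1.16). The host promoter had 532 against 616 (-0.21).

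Chromosome 17 held 2 of the 10. A peak at 49838641 to 49839034, in a gene that binds actin and acts in Wnt signalling, had 109 reads against 31 (1.67), and the other 7 peaks of its intron had 658 against 441 (0.58, interval 0.40 to 0.76). The peak at 44526140 to 44526704 lies in a chloride channel gene with terms for diet-induced thermogenesis. It had 263 reads against 80 (1.66, interval 1.35 to 2.099), and the other 10 peaks of the intron 970 against 646 (0.59). In both introns the neighbouring peaks shared the direction by a smaller amount.

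Others of the 10 had smaller ratios. An intron of a myosin-binding, cell-cell junction gene on chromosome 3 (87072539 to 87073131) had 153 reads against 49 (1.55), and the promoter of the neighbouring gene with the nearest start had 70 against 21 (1.53). Chromosome 1 (82217022 to 82217479) had 123 against 40 (1.51) in a scaffold gene of insulin receptor signalling. The other 5 peaks of that intron held 458 against 528 (-0.20), the opposite direction.

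A further 1 of the 10 rises and 1 of the 10 falls were neighbours in the long intron of chromosome 8. The peak at 121237786 to 121238183 had 141 reads in the knockout against 43 (1.61, interval 1.21 to 2.24). The peak at 121231958 to 121232247 had 39 against 121 (-1.52, interval -2.19 to -1.10). They are separated by 5538 bp, with 0 other first-intron peaks between them, and have the same nearest start. Since 1 was picked as a rise and the other as a fall, their opposite directions follow from the selection.

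**Figure D3:**
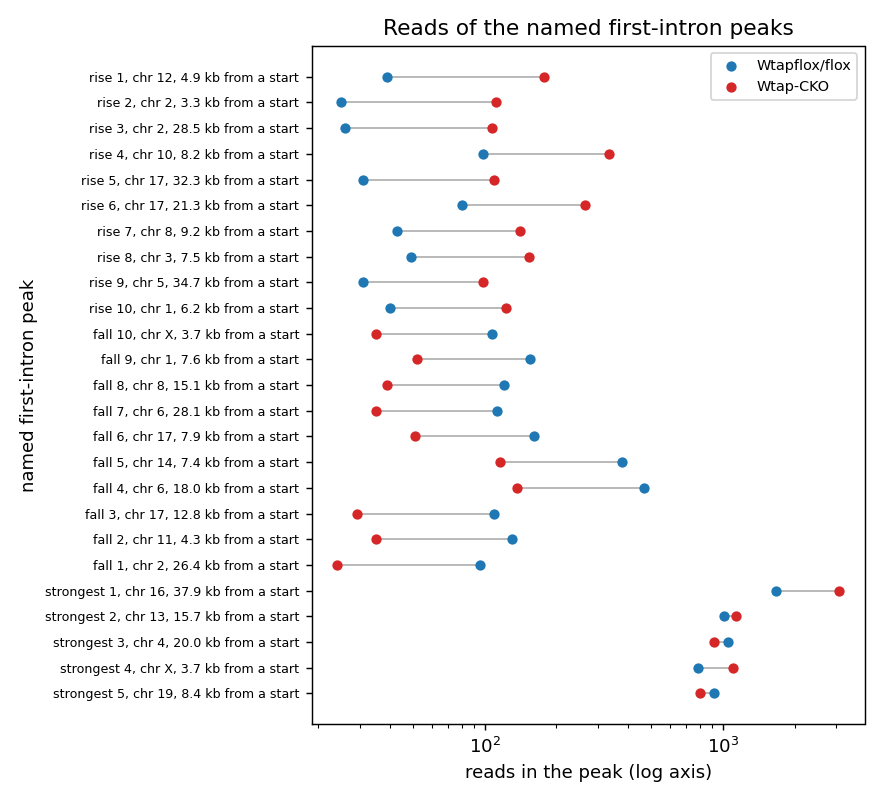
Reads in the control (blue) and the knockout (red) on a log axis for the 10 largest rises, the 10 largest falls and the 5 strongest first-intron peaks, labelled by chromosome and distance to the nearest start. The strongest peaks differ by less than 2-fold; the rises and falls were chosen as the largest differences.

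The 10 largest differences towards the control had 96 to 469 reads there and 24 to 137 in the knockout, and 7 of them were called only in the control. The best covered lay on chromosome 6 (84220281 to 84220868), in intron 1 of 1 of ENSMUSG00000107538, whose function is not described in the terms used here. It held 137 reads in the knockout against 469, a log2 ratio of -1.74 (interval -2.06 to -1.49). Its promoter had 393 reads against 609 (-0.62, interval -0.82 to -0.44), and the other 5 peaks of the intron 379 against 571 (-0.59), with each of the 5 below 0. The peak, its neighbours and the promoter were thus all lower in the knockout. A chromosome 14 peak (25894918 to 25895524), in a gene with a term for the extracellular region, had 116 against 376 (-1.65). The other peak of that intron had 74 against 122 (-0.72) and the promoter 122 against 170 (-0.46).

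Chromosome 2 (90384203 to 90384548) had 24 reads against 96 (-1.80, interval -2.71 to -1.34), while the other 4 peaks of the intron had 234 against 253 and the promoter 379 against 413. Chromosome 11 (110961295 to 110961605) had 35 against 130 (-1.75), 4305 bp from a start whose promoter had 508 against 470 (0.11). Chromosome 17 (86581418 to 86581774) had 29 against 109 (-1.75), and the other 18 peaks of that intron 2456 against 2664 (-0.11). GO terms of these 3 genes are not used here.

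ENSMUSG00000024175, a gene of motile cilia and the sperm flagellum on chromosome 17 (25681488 to 25681891), had 51 reads against 161 (-1.57), and the other 2 peaks of its intron 153 against 144. Chromosome 6 (99336700 to 99337395) had 35 against 113 (-1.56), chromosome 1 (120070304 to 120070698) 52 against 155 (-1.49) and X (7282729 to 7283130) 35 against 107 (-1.48). The other peak of the chromosome 1 intron went the other way, with 22 against 8. Across both sets, 9 rises and 8 falls had further peaks in the same intron. The summed interval of those peaks lay on the same side for 6 rises and 3 falls. Since the named peaks were picked as extremes, their neighbours lying closer to 0 is no finding. Promoters of the hosts, where they had a peak, ran from -0.48 to 0.38 for the rises and from -0.62 to 0.45 for the falls.

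Of the 5 strongest first-intron peaks, the first, on chromosome 16 (57211529 to 57212139), had 3086 reads in the knockout and 1665 in the control, a log2 ratio of 0.89 (interval 0.81 to 0.98). The other 16 peaks of its intron had 894 against 1049 (-0.23), the opposite direction. The next, on chromosome 13 (24749145 to 24750424), had 1131 against 1010 (0.17). A peak on chromosome 4 (137216084 to 137216787), in intron 1 of 96 of a basement membrane gene, had 914 against 1051 (-0.20), beside a promoter at -0.31. X (75642119 to 75642842), in a tight junction gene, had 1100 against 786 (0.49). Chromosome 19 (53790165 to 53791000) lies in a gene annotated to heart development and RNA splicing and had 799 against 914 (-0.19, interval -0.33 to -0.05). The other 25 peaks of that intron had 3939 against 4093 (-0.05) and the promoter 806 against 1006 (-0.32).

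Peaks of the same intron varied nearly as much as peaks of different introns. In all 79 introns with 10 or more peaks, ratios of both signs occurred. This is close to certain in advance, since 51.6% of first-intron peaks had the higher value in the knockout. Medians of these introns ran from -0.50 to 0.82. The SD of log2 ratios among the peaks of such an intron had a median of 0.55, beside 0.61 over all first-intron peaks. Of the 3560 host transcripts, higher peaks fell in 236 and lower peaks in 111, and 8 transcripts had both. With so few transcripts in either set, a small overlap does not show that rises and falls lie in separate introns. At least 2 higher peaks occurred in 18 transcripts and at least 2 lower peaks in 10.

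The genes with the most first-intron peaks were close to balance. By nearest start, 2281 of 4171 genes (54.7%) had 1 first-intron peak and 58 had 10 or more, whose summed ratios ran from -0.39 to 0.76. A gene on chromosome 9 (peaks from 68596705 to 69089114) had the most, 32, with 1661 reads in the knockout and 1732 in the control (-0.06, interval -0.16 to 0.04). A chromosome 8 gene (120958609 to 121283394) had 29, all in the long intron, with 4624 against 4871 (-0.07). A gene with adherens junction terms on chromosome 6 (93923605 to 94231219) had 22, with 1772 against 1722 (0.04). The 3 genes with 19 peaks had ratios of 0.05, 0.05 and -0.03. One of these 3, on chromosome 15 (52992009 to 53203078), is annotated to heart field specification and bone formation.

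Genes with a first-intron peak had lower promoter ratios than other genes. Reads within 1000 bp of a start were summed per gene. Genes were grouped by nearest start, so the intron could be that of another gene. Genes with a first-intron peak could also have later-intron peaks, and the part of each kind was not separated. The 2499 genes that had a promoter peak and a first-intron peak held 849743 promoter reads in the knockout and 932772 in the control, with a median log2 ratio of -0.13. The 2940 genes with later-intron peaks only had a median of -0.075, and the 10859 genes with no intron peak one of -0.032. Their promoters also differed in strength, with median CPM of 29.1, 23.8 and 20.9.

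The order held within each of 4 classes of promoter signal, cut at its quartiles. Medians of genes with a first-intron peak were -0.15, -0.11, -0.11 and -0.15 from the weakest class to the strongest. Genes with later-intron peaks only had -0.073, -0.075, -0.056 and -0.096, and genes with no intron peak -0.025, 0.0027, -0.023 and -0.071. In the strongest class 79.3% of the promoters of genes with a first-intron peak were below 0, against 63.3% of those with no intron peak. The promoter grouping was chosen after list values had been seen. Scaling moves all these medians alike, so their order does not depend on it, but their signs do.

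**Figure D4:**
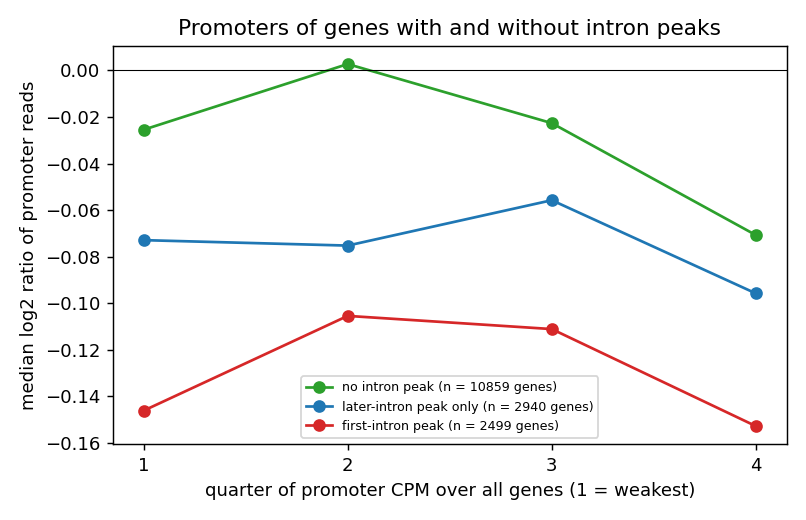
Median log2 ratio (knockout over control) of promoter reads by class of promoter CPM, cut at its quartiles. Genes, grouped by nearest start, had a first-intron peak, with or without later-intron peaks (red), later-intron peaks only (blue) or no intron peak (green). Red lies lowest in all 4 classes.

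Within the same genes, assigned by nearest start, first-intron peaks and promoters differed. For 32.4% of all first-intron peaks that start belonged to a gene other than the host, so the intron could be a neighbour's. The comparison was not run by host gene. Among the 2499 genes, the median was 0.014 for first-intron reads beside -0.13 for promoter reads, and 1516 genes (60.7%) had the higher ratio in the first intron. Of the 2031 genes with both over the floor, 49 were at least 2-fold higher by first-intron reads, and the promoters of these 49 had a median of -0.057, with 1 past 2-fold. The 26 that were at least 2-fold lower had promoters with a median of -0.22, from -0.62 to 0.45.

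Summed over the first-intron peaks of a gene, 80 of the 3364 genes over the floor (2.38%) were at least 2-fold higher and 42 (1.25%) at least 2-fold lower. The named extremes were among genes at or above the median sum. The largest, on chromosome 6 (86177897 to 86196685), had 234 reads in 2 peaks against 77 (1.55, interval 1.23 to 2.00), with both peaks above 2-fold and a promoter at -0.25. A complement receptor gene on chromosome 5 (113772397 to 113774625) with terms for G-protein coupled signalling had 150 against 61 (1.24, interval 0.86 to 1.75), with its promoter at 0.41. A phosphoinositide phosphatase gene on chromosome 8 (41062851 to 41067943) had 208 against 89 (1.18) and a promoter at -0.61. A tubulin-folding gene on chromosome 13 (94942386 to 94943180) had 133 against 58 (1.14), and a phosphatidylserine-binding exocytosis gene on chromosome 7 (89968833 to 89982421) 216 against 96 (1.13). The MAP kinase cascade gene on chromosome 12 described above had 252 against 105 in 4 peaks (1.23), of which the named peak gave 178. The other 4 have no terms used here and ran from 1.15 to 1.34.

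Of the genes with lower sums named here, 2 bind actin, and both were picked as extremes. Among 121 genes over the floor with GO terms for the actin cytoskeleton, 2 (1.65%) were at least 2-fold lower and 1 (0.826%) higher. The shares over all genes with terms were 1.28% lower and 2.22% higher. A stress fibre gene that binds actin and myosin II on chromosome 5 (66918143 to 66946640) had 69 reads against 164 in 2 peaks (-1.19, interval -1.67 to -0.83) and a promoter at -0.34. A gene that binds actin and profilin on chromosome 11 (103067061 to 103068445) had 84 against 197 (-1.18, interval -1.61 to -0.85). A calmodulin-binding ubiquitin transferase gene on chromosome 4 (139114283 to 139123139) had 54 against 147 (-1.36), whereas its promoter was higher (0.31). The gene on chromosome 8 (71023585 to 71024113) for inositol-3-phosphate synthase, which makes inositol from glucose phosphate, had 188 against 420 (-1.14, interval -1.41 to -0.91), beside a promoter at -0.35. The chromosome 14 and chromosome 1 genes named above had -1.36 and -1.09, and the other 4, with no terms used here, lay between -1.18 and -1.16.

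GO terms were used for 2082 of the 4171 genes. The first-intron peaks of a gene are here those nearest to its start, also where they lie in an intron of another gene. These 2082 genes had a median first-intron log2 ratio of 0.026, and of the 1715 over the floor 38 (2.22%) were higher and 22 (1.28%) lower. They held 405191 reads in the knockout and 402017 in the control. Of the 24 lists first planned from term names, 22 had a gene with a first-intron peak. Of these, 12 had a median below that of all genes with terms and 10 one above. The list of sequence-specific transcription factors, added later and not in these counts, also lay above (0.034). Lists share genes, and a list's median describes these libraries only. The authors' RPM shifts the median of all peaks by -0.22, which is larger in size than most list medians. List values were not recomputed with it, so their signs, and whether intervals exclude 0, are given only for scaling by reads in peaks.

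Genes of the sarcomere list build the contractile unit of muscle. By nearest start, the list had a first-intron peak for 69 of 237 genes (29.1%), against 15.2% of all genes with terms. Its median was -0.049 (-0.13 by the strongest peak of each gene), and 40 of 69 genes lay below the median of all. Of 60 over the floor, 1 (1.67%) was at least 2-fold higher and 0 lower, against 2.22% and 1.28% of all genes with terms. Reads summed to 17008 in the knockout and 17820 in the control (-0.064, interval -0.095 to -0.034). The promoters of 64 of these genes had a median of -0.16, against -0.15 for all genes with terms and a first-intron peak. The lowest member was a thin filament actin gene on chromosome 8 (124609896 to 124618397), with 42 reads against 83 (-0.90), inside the span of the long intron. The highest was a cyclic AMP phosphodiesterase gene on chromosome 4 (102033274 to 102033547), with 60 against 20 (1.38, interval 0.84 to 2.40), which was also highest in the ion channel and synapse lists.

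The sarcoplasmic reticulum and calcium list had 29 genes and a median of -0.11 (-0.020 by host gene). Of 25 over the floor, 0 were past 2-fold in either direction. Besides genes that store and release calcium, it takes in genes of contraction, such as its lowest member. It shares 16 genes with the sarcomere list. Its 8064 reads stood against 8411 (-0.058). A gene of the myosin complex that regulates the force of heart contraction, on chromosome 9, at 110587734 to 110588660, was lowest, 236 against 354 (-0.57, interval -0.83 to -0.34). A GTPase activator gene with a calcium-release channel term on chromosome 8 (13683093 to 13723339) was highest, with 1311 against 896 in 7 peaks (0.55, interval 0.43 to 0.68).

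The 49 ion channel genes had a median of -0.19, with 32 below the median of all, 2 of 39 over the floor higher and 0 lower. Their summed reads were nearly equal, 10071 against 10290 (-0.028, interval -0.068 to 0.012). The lowest was a voltage-gated cation channel gene that responds to cyclic AMP on chromosome 10 (79558913 to 79559946), with 120 against 242 (-0.98, interval -1.34 to -0.69). Channels of this type carry pacemaker current in the heart. Intercalated disc and desmosome genes (19), which couple cardiomyocytes to each other, had a median of 0.035 (-0.066 when counted by host gene), and 0 of 19 passed 2-fold.

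By nearest start, first-intron peaks were assigned to 5 of 41 glycolysis genes (12.2%) and 10 of 56 fatty acid oxidation genes (17.9%). The share was 3.88% (5 of 129) for respiratory chain genes and 15.2% for all genes with terms. The 5 glycolysis genes were all below the median of all genes, with a median of -0.25 and 2369 reads against 2877 (-0.28, interval -0.36 to -0.20). By the strongest peak of each gene the median was -0.072. The hexokinase gene on chromosome 10 (62168216 to 62168786), which traps glucose in the cell, had 362 against 485 (-0.41, interval -0.62 to -0.22), with its promoter at -0.03. The members with the most reads were a transcriptional corepressor gene on chromosome 8 (123363577 to 123439026, 1125 against 1344, -0.25), inside the span of the long intron, and a bicarbonate transporter gene on chromosome 5 (798 against 955, -0.25). Neither is a glycolytic enzyme. A phosphofructokinase gene, which commits sugar to glycolysis, had 56 against 59 (-0.07), and a phosphoglycerate mutase gene 28 against 34 (-0.24). Fatty acid oxidation genes had a median of -0.023 (-0.16 by the strongest peak of each gene), and a peroxisomal acyl-CoA oxidase gene on chromosome 11 was highest with 86 against 40 (1.02). Respiratory chain genes had a median of -0.070.

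Among signalling lists, that of hippo signalling, which limits organ growth, had the highest median of all lists. The list mixes genes of the pathway with genes annotated to its negative regulation, among them its highest and its lowest member. Its median therefore gives no direction for the pathway. Of its 9 genes 8 lay above the median of all, the list median was 0.21, and 1987 reads stood against 1627 (0.29, interval 0.20 to 0.39). A kinase-binding scaffold gene on chromosome 11 (35833267 to 35839663) led it with 105 against 28 (1.74, interval 1.30 to 2.57), while its promoter had 69 against 117 (-0.72). An angiogenesis and tight junction gene on chromosome 9 (14518691 to 14520179) had 219 against 114 (0.92), with its promoter at 0.56. A cell-cycle kinase gene on chromosome 14 (57990890 to 57991445) had 109 against 68 (0.65, interval 0.23 to 1.14). A DNA-binding transcription activator on chromosome 7 (112296292 to 112353313) had 367 against 309 (0.25, interval 0.029 to 0.47) and a promoter at -0.54. Intervals of the other 5 included 0, with ratios from -0.09 to 0.21.

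Wnt signalling genes (50) had a median of 0.098, and 10670 reads against 9985 (0.099, interval 0.059 to 0.14). The median was 0.047 by the strongest peak of each gene. The highest gene, a component of a ubiquitin ligase complex on chromosome 19 (45598883 to 45599199), had 75 against 16 (1.94, interval 1.44 to 3.11), beside a promoter at -0.05. Insulin and growth factor genes (31) had a median of -0.065, genes of TGF-beta and BMP signalling (32) -0.051 and of Notch signalling (26) -0.11. In the Notch list, a kinase gene with Notch-binding terms on chromosome 6 (86895113 to 86899126) was lowest with 149 against 239 (-0.66, interval -0.98 to -0.38).

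Cell division genes (78) had a median of 0.11, with 3 of 65 over the floor higher and 0 lower. Heart development genes (49) had 0.052, with 1 of 44 higher and 1 lower. The higher of these is a gene of the ciliary motor dynein on chromosome 4 (41575910 to 41576397, 127 against 57, 1.09) and the lower a guanine nucleotide exchange gene on chromosome 17 (80775873 to 80776277, 30 against 67, -1.04). Actin cytoskeleton genes (134) had -0.018 (-0.16 by the strongest peak) and GTPase regulators (103) 0.059, chromatin remodeling genes (34) -0.032 and sequence-specific transcription factors (84) 0.034. The transcription factor list was added after the terms had been read, since the pattern first written matched 0 genes. The mRNA methylation list had 19 genes in the table, of which 0 had a first-intron peak.

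Of the lists chosen for non-muscle and smooth muscle cells, 4 had medians above that of all genes, and the synapse list did not. Smooth muscle genes (17) had 0.18 (0.083 by the strongest peak, 0.097 by host gene), extracellular matrix genes (27) 0.12 (0.044 by host gene), immune genes (69) 0.093 and angiogenesis genes (55) 0.044, and synapse and axon genes (139) had -0.029. Calls at 2-fold were few. Of 13 smooth muscle genes over the floor, 1 was higher. Of 62 immune genes 3 were higher and 1 lower, and of 112 synapse genes 2 were higher and 4 lower. The shares over all genes with terms were 2.22% higher and 1.28% lower. Extracellular matrix reads summed to 5269 against 5065 (0.060, interval 0.0039 to 0.12). Immune reads summed to 10511 against 10798 (-0.036, interval -0.075 to 0.0029), against the sign of that list's median. Intervals also included 0 for smooth muscle (2276 against 2180, 0.065, -0.020 to 0.15) and angiogenesis (16167 against 15883, 0.028, -0.0033 to 0.060). Synapse and axon reads summed to 30682 against 31558 (-0.038, interval -0.060 to -0.015). The lowest immune gene, a calmodulin-dependent kinase gene of toll-like receptor signalling on chromosome 1 (130990467 to 130990941), had 203 against 430 (-1.06, interval -1.33 to -0.84). The lowest synapse gene, a cell adhesion gene on chromosome 9 (27216029 to 27216451), had 34 against 100 (-1.43). The part of cell composition in these values was not tested.

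**Figure D5:**
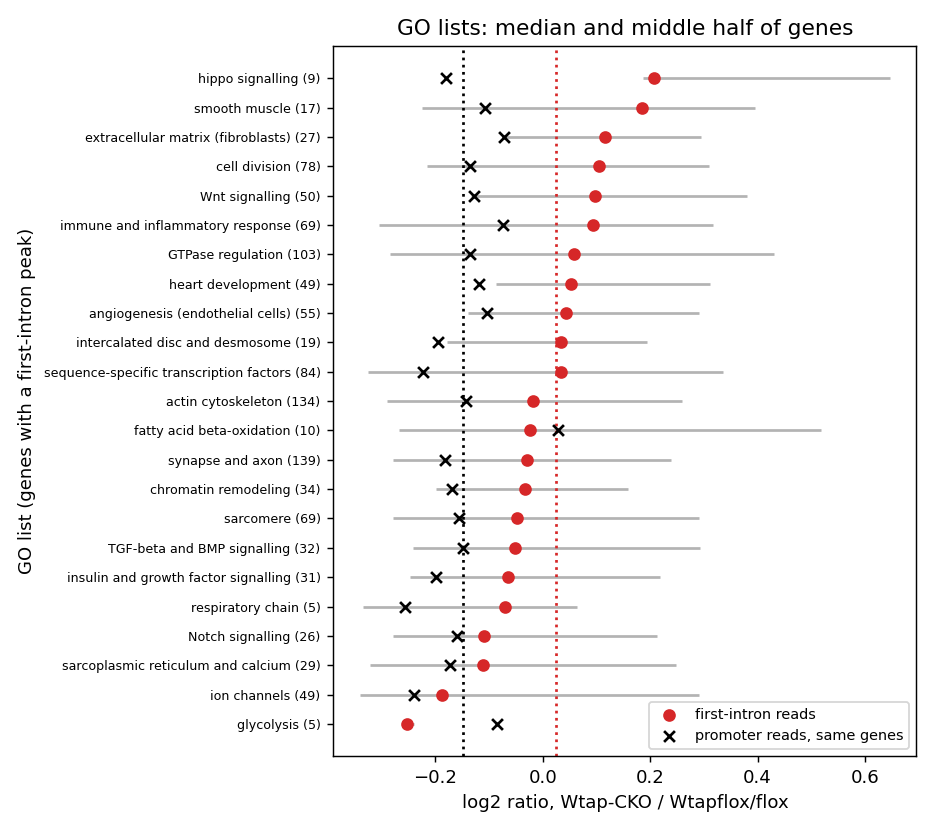
Median log2 ratio (knockout over control) of first-intron reads per gene (red points) with the interquartile range of genes (grey bars), and median of promoter reads of the same genes (crosses), for each GO list; the number of genes is in brackets and dotted lines mark all genes with terms. Crosses lie left of the red points in all lists but glycolysis and fatty acid beta-oxidation.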

How the data were processed

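ATAC-seq was run on 2 libraries, each from pooled hearts. Tools named in the submitters' processing notes, without roles, are HOMER 4.11, ChIPseeker, MACS2 2.1.0, BWA 0.7.12 and fastp 0.20.0, with the build GRCm39. How duplicates, mitochondrial reads and the Tn5 offset were treated is not stated there, and each could change depth. The authors deposited counts of whole reads per merged peak, which were used for all ratios. The deposited RPM is the count plus 1 read times a constant per library (0.0171 for Wtapflox/flox, 0.01475 for Wtap-CKO), and the deposited log2 fold change is the log2 ratio of the RPM. The fold enrichment deposited by the authors was not used.

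Counts were scaled to CPM by reads in all 83549 peaks, and log2 ratios were taken after adding 0.5 CPM, which shrinks ratios of weak peaks. Calls of higher and lower peaks needed 2-fold and a mean CPM at or above the 25th percentile, which 62662 peaks reached. Ratios of summed lists have no added value. Python 3.11.15, pandas 2.3.3 and scipy 1.17.1 were used, and the ratio and interval code was tested on simulated data.

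Gene lists are patterns on GO term names, matched for the gene of the nearest start; 377 genes had their terms left out here and 1712 had none. Named items are the 10 largest rises and falls among peaks, and among gene sums, at or above the median signal, the 5 strongest peaks, the 5 genes with the most peaks (6 with ties) and list extremes over the floor. Named extremes are given for part of the lists, and 1 of the 10 rises is not reported here. Members and lists were chosen with earlier results of these data known. The reference tables are of another build and share no IDs with the files, so symbols, markers, sequences and the planned motif search were not used here.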

Additional observations from a re-analysis of the deposited data

How the results depend on the processing

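Each genotype has 1 library, so none could be left out. No paired analysis was possible because each group has 1 sample. First introns stayed below later introns in the alternatives run, from -0.051 to -0.028. Both centrings leave this difference at -0.039 by construction, the RPM can change it only through the added read, and all reuse the same reads. Counts of higher and lower first-intron peaks (265 and 124) became 113 and 52 with a pseudocount of 2 CPM, 166 and 369 with the authors' RPM, 63 and 37 among peaks called in both libraries, 606 and 321 without a floor, 96 and 55 with a floor at the median, 916 and 679 at 1.5-fold, 5 and 0 at 4-fold, and 141 and 301 with library totals taken from the RPM. The last became 17 and 63 where 0.5 was added to values per total read, since it then weighs 6.41 times as much; both were chosen after seeing the data. The median of 0.015 became -0.20 by RPM, 0.075 when centred on promoter peaks and -0.0095 with a floor at the median. The difference between peaks within 10 kb and those at 100 kb or farther (0.036) became -0.015 among peaks called in both libraries and -0.031 with 1 value per gene, so it has no stable sign. Gene counts (80 higher, 42 lower) were 99 and 54 by the strongest peak and 65 and 34 by host gene, the latter chosen after seeing the data. By host gene, list medians changed sign for the intercalated disc (-0.066), chromatin remodeling (0.0025), Notch (0.012) and transcription factors (-0.027), and by the strongest peak for TGF-beta and BMP (0.10). Without a change of sign, medians also moved by over 1.5 times for other lists, among them insulin and growth factor genes (-0.065 to -0.015 by the strongest peak), cell division (0.11 to 0.063 by host gene) and synapse and axon genes (-0.029 to -0.015 by host gene and -0.046 by the strongest peak). Causes were not tested. All 265 and 124 peaks have counting intervals that exclude 0; these leave out differences between pools. The motif comparison was not run.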
